A study of Mus musculus with 12 samples.

Results

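The genes described here are the collagen chain genes of the mouse, taken as every row of the deposited F1 and F3 gene tables whose gene name is Col, a number, a and a number (Col1a1, Col4a2 and so on). There were 44 of them among 28075 genes in either table. Of the 19091 genes listed for F1, 44 were collagen chains, and of the 26023 listed for F3, 42 were, because Col10a1 and Col19a1 had a row only in F1. By the structures their chains form, 11 encode fibrillar collagens, 6 encode the type IV collagens of basement membranes and 27 encode other collagens.

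The libraries are mRNA-seq of mouse prostate in males of 2 generations. Pregnant females (F0) of the exposed line received chlordecone (kepone), an organochlorine insecticide, at 100 µg/kg/day from E6.5 to E15.5 (embryonic days). F1 males are the generation carried during that treatment, and F3 males are the third generation. Controls are the males of the same generation labelled control, and no strain, age or genotype is given for any group. The F1 comparison used 2 control and 3 chlordecone libraries, since F1 control 3 was not analysed here, and the F3 comparison used 3 and 3. The labels do not say whether libraries came from separate animals or pools, so p-values measure only the spread between these samples, which may be technical.

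Collagens are trimers of chains that share a repeated glycine-containing sequence. Fibrillar collagens, mainly types I, III and V, form the rope-like fibres of the stroma and are made largely by fibroblasts and smooth muscle cells. Type IV chains assemble into the sheet under epithelia, around smooth muscle cells and around vessels; genes for type IV chains lie in head-to-head pairs. Other families anchor that sheet to the stroma, span the membrane of epithelial cells or sit on the surface of fibrils.

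Total counts ran from 17228539 to 28061760 in the F1 libraries and from 71672418 to 114762135 in the F3 libraries. Levels are in CPM (counts over the scaled library total, TMM), and levels of different genes are compared only in RPKM, which also divides by exon length. Prostate marker transcripts summed to between 52192 and 101886 CPM in F1 and between 87587 and 105480 CPM in F3. That list includes Spinkl, whose F1 levels ran beside those of Svs6 of the seminal vesicle list, but not beside the sum of that list. Whether the F1 prostate sums are of prostate alone was not tested. Spinkl was 6788 and 5879 CPM in F1 controls and 2181, 11897 and 13.8 CPM in F1 chlordecone 1 to 3. Svs6 was 5137 and 5366 CPM against 1864, 10434 and 93.0 CPM. In F3 Spinkl was at most 0.0232 CPM. Seminal vesicle transcripts summed to 117534 and 120221 CPM in the F1 controls, to 186533, 428162 and 528807 CPM in F1 chlordecone 1 to 3, and to at most 67.0 CPM in F3. Markers of the vas deferens and epididymis summed to 44289 CPM in F1 chlordecone 1 and 13930 CPM in F1 chlordecone 3, mainly from Akr1b7 and Crisp1 (Adam7, Defb48 and Lcn5 reached at most 1.64 CPM in any F1 library), against 25.2 and 24.8 CPM in the F1 controls and 103 CPM in F1 chlordecone 2. The part of such tissue in the F1 collagen values was not tested. F1 values are therefore also given, for some members, with F1 chlordecone 1 and 3 both left out. In bulk tissue, fewer cells of a type and less RNA per cell cannot be told apart.

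The start regions of the type IV genes are shown because the 3 pairs of genes are compared chain by chain in the values that follow, and that of Col17a1 because it had the smallest p of any member in F3. Sequences are from RefSeq promoter windows (GRCm38.p6), trimmed to end where the annotated gene begins, except for the shared stretch, and capitals mark the CCAAT box (CCAAT), the GC box (GGGCGG) and the TATA box (TATAAA), or their reverse complements. Col4a1 and Col4a2 run in opposite directions on chromosome 8 and overlap by 22 bases that are exonic in both.
Col4a1 and Col4a2 shared stretch, chr8:11312805-11312826 (+): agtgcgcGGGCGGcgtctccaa
Col4a4 and Col4a3 start 71 bases apart on chromosome 1, and the gap holds none of the 3 motifs.
Col4a4 and Col4a3 gap, chr1:82586850-82586920 (+): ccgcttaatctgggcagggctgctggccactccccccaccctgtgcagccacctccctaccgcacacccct
Col4a6 and Col4a5 start 1308 bases apart on chromosome X.
Col4a6 upstream, chrX:141474077-141474326 (-): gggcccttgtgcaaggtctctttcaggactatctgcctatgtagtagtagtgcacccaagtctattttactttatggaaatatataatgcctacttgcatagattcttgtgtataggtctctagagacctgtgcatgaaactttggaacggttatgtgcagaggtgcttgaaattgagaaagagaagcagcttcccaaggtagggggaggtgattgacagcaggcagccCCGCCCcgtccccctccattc
Col4a5 upstream, chrX:141475169-141475384 (+): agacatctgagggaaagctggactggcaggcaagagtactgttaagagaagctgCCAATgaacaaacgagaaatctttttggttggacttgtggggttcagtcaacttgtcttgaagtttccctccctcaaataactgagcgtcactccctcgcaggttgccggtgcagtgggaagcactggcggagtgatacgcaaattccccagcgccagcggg
Col17a1 lies on the minus strand of chromosome 19, and its upstream stretch holds 2 copies of TATAAA.
Col17a1 upstream, chr19:47692095-47692292 (-): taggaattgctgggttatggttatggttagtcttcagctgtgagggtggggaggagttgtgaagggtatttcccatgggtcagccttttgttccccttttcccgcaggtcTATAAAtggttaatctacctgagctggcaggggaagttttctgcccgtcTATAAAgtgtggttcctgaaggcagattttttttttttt
Promoter windows of 300 bases were matched for 35 of the 44 members (38 windows). On either strand, with overlaps between motifs allowed, GGGCGG was in 60.5% of the members' windows and 35.7% of all 32851 windows. CCAAT was in 34.2% against 37.4%, and TATAAA in 13.2% against 13.6%. These matches describe letters in a window and do not show that a factor binds there.

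In F1, collagen transcripts made up 0.0385% and 0.0387% of counts in the control libraries and 0.0619%, 0.0473% and 0.0449% in chlordecone 1 to 3. All the chlordecone libraries were thus above both controls. After the filter on low counts 41 of the 44 members were tested, and 30 had a log2 fold change above 0, against 51.4% of all genes tested. Their median log2 fold change was 0.53, beside 0.025 over all genes. By class the median was 0.84 for the 6 type IV genes, 0.56 for the 24 other genes tested and 0.25 for the 11 fibrillar genes. With F1 chlordecone 1 and 3 left out the median over the members was 0.40.

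No F1 member passed an adjusted p of 0.05 in edgeR (0 of 41), a threshold passed by 0.0281% of all genes tested. At an unadjusted p under 0.05, 8 members were higher, against 7.93% of all genes: Col1a1, Col4a1, Col4a2, Col6a1, Col7a1, Col16a1, Col18a1 and Col23a1. On the same rule 2 were lower, Col9a2 and Col25a1, against 3.6% of all genes. Control and chlordecone libraries did not overlap for 15 members that were higher (all genes, 16.2%) and 6 that were lower (all genes, 15.1%). The authors' deposited table, made with DESeq2, called 4 members of 44 at an adjusted p under 0.05 (all genes, 3.37%): Col7a1, Col18a1 and Col23a1 as higher and Col9a2 as lower. DESeq2 run here on the counts called those genes as well, 4 of 44 (all genes, 3.62%).

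Leaving out F1 chlordecone 2 changed the edgeR calls. Without it, 7 of 41 members passed an adjusted p of 0.05, all higher (Col3a1, Col4a1, Col4a2, Col4a5, Col7a1, Col18a1 and Col23a1), while 15% of all genes tested passed. The members' share, 17.1%, was near that of all genes. The chlordecone libraries left in that fit, 1 and 3, were those with vas deferens and epididymis markers, whose part in these calls was not tested. With F1 chlordecone 1 and 3 left out, chlordecone 2 stands alone and the spread comes from the 2 controls, whose counts were the most alike of all F1 pairs. Values from that fit are therefore given as descriptions, with no test.

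**Figure D1:**
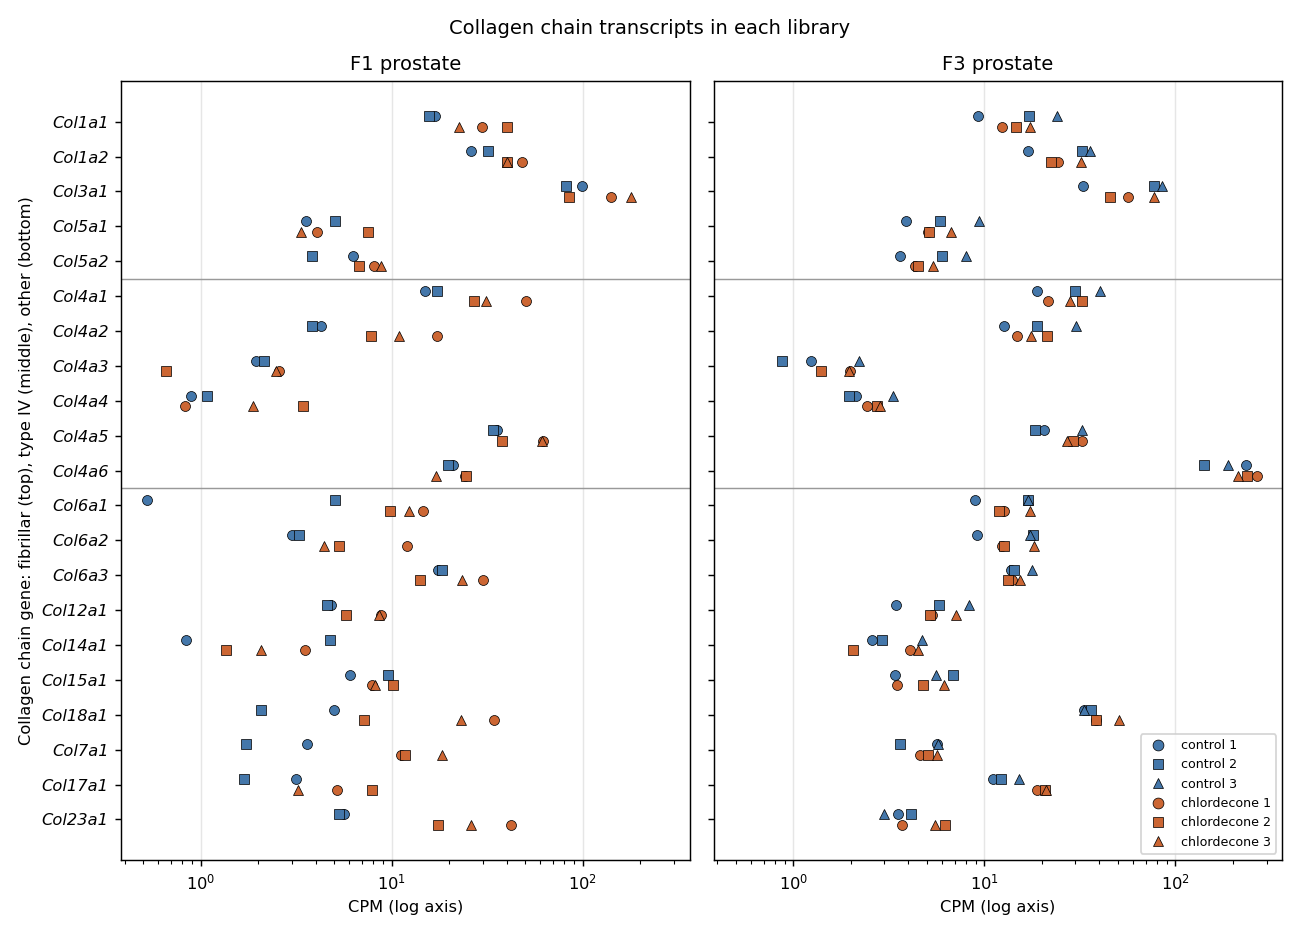
Level of 21 collagen chain genes in each library, in CPM on a log axis, with F1 on the left and F3 on the right, control libraries in blue and chlordecone libraries in orange, and fibrillar, type IV and other collagens separated by grey lines. In F1 the orange points of Col7a1, Col18a1 and Col23a1 all lie to the right of the blue points, while in F3 Col4a6 lies farthest right, between 141 and 266 CPM.

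Among the fibrillar genes in F1, Col3a1, the type III chain, had the highest level per length of any member in every library, at 8.28 to 18.1 RPKM. Its level was 98.9 and 81.3 CPM in the controls and 141, 84.2 and 178 CPM in chlordecone 1 to 3. The groups overlapped, since chlordecone 2 lay between the controls, and the log2 fold change was 0.58 ± 0.36 (SE; edgeR adjusted p = 0.60). It was -0.098 with F1 chlordecone 1 and 3 left out.

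The type I chains were higher in all the F1 chlordecone libraries than in either control. Col1a1, the α1 chain of the main stromal fibre, was 16.9 and 15.7 CPM in controls and 29.5, 40.1 and 22.6 CPM in chlordecone 1 to 3. Its log2 fold change was 0.91 ± 0.31 (SE; edgeR adjusted p = 0.33), and it was 1.30 with F1 chlordecone 1 and 3 left out. Col1a2, the α2 chain, was 26.0 and 31.8 CPM in controls and 48.0, 40.0 and 40.2 CPM in chlordecone libraries, a log2 fold change of 0.56 ± 0.25 (SE; edgeR adjusted p = 0.45).

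Type V chains, which nucleate type I fibrils, moved less evenly. Col5a2 was 6.24 and 3.84 CPM in controls and 8.08, 6.76 and 8.79 CPM in chlordecone libraries, with no overlap (log2 fold change 0.65 ± 0.42 SE; edgeR adjusted p = 0.62). Col5a1 was 3.56 and 5.06 CPM against 4.04, 7.52 and 3.36 CPM, and its groups overlapped. Its log2 fold change was 0.20, and 0.80 with F1 chlordecone 1 and 3 left out. Of the other fibrillar genes in F1, Col11a1 was lower in every chlordecone library (0.491 to 1.43 CPM against 2.20 and 3.00 CPM; log2 fold change -1.25 ± 0.83 SE, edgeR adjusted p = 0.63). Col2a1, Col5a3, Col11a2, Col24a1 and Col27a1 overlapped between groups, with log2 fold changes from -0.067 to 0.45.

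Fibroblast markers summed to 772 and 654 CPM in controls and 845, 589 and 911 CPM in chlordecone 1 to 3, with 5 of 8 higher and 3 lower. Smooth muscle markers summed to 4036 and 3964 CPM in controls and 11748, 4636 and 7398 CPM in chlordecone libraries, with 7 of 7 higher, 5 of them at an unadjusted p under 0.05 in edgeR. Adipocyte markers summed to 19.4 and 26.2 CPM in controls and 76.0, 257 and 61.3 CPM in chlordecone 1 to 3. Schwann cell and nerve markers summed to 34.3 and 37.3 CPM against 62.5, 168 and 65.9 CPM. Both were highest in chlordecone 2. Stromal collagens went both ways in that library. Col1a1, Col5a1 and Col16a1 were highest there, whereas Col1a2, Col3a1, Col5a2, Col6a3 and Col12a1 were at their lowest among the chlordecone libraries. Pericyte markers summed to 22.8 and 24.5 CPM against 42.3, 25.0 and 41.1 CPM. Striated muscle markers summed to 152 and 131 CPM against 375, 172 and 230 CPM. The part of all of these cells in the collagen values was not tested.

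In the F1 type IV genes the most widely expressed pair, Col4a1 and Col4a2, was higher in every chlordecone library. Col4a1 was 14.9 and 17.2 CPM in controls and 50.4, 27.0 and 31.1 CPM in chlordecone 1 to 3, a log2 fold change of 1.17 ± 0.34 (SE; edgeR adjusted p = 0.26). Col4a2 was 4.24 and 3.84 CPM in controls and 17.3, 7.80 and 10.9 CPM in chlordecone libraries, a log2 fold change of 1.57 ± 0.45 (SE; edgeR adjusted p = 0.26). In both genes chlordecone 1 was the highest library and chlordecone 2 the lowest of the exposed ones. With F1 chlordecone 1 and 3 left out the log2 fold changes were smaller, 0.75 for Col4a1 and 0.95 for Col4a2. The genes share 22 exonic bases, printed above, so reads there could be assigned to either unless strand was used.

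Col4a5 and Col4a6, whose chains join in the basement membrane of smooth muscle and of some epithelia, differed from each other in F1. Col4a5 was 35.6 and 33.9 CPM in controls and 61.8, 37.6 and 61.4 CPM in chlordecone 1 to 3, without overlap (log2 fold change 0.62 ± 0.30 SE; edgeR adjusted p = 0.47). Col4a6 was 21.0 and 19.8 CPM against 24.2, 24.4 and 17.1 CPM, and overlapped (log2 fold change 0.10 ± 0.28 SE; -0.043 with upper-quartile scaling). Col4a3 and Col4a4 encode chains best known from kidney and lung, and were low: Col4a3 was 1.94 and 2.16 CPM against 2.57, 0.654 and 2.49 CPM. Col4a4 was 0.891 and 1.08 CPM in controls and 0.831, 3.44 and 1.89 CPM in chlordecone libraries. Chlordecone 2 was the lowest library for Col4a3 and the highest for Col4a4. The log2 fold changes of Col4a3 and Col4a4 were -0.10 and 1.05. With F1 chlordecone 1 and 3 left out they were -1.64 and 1.80, while Col4a5 was 0.11 and Col4a6 0.26. Endothelial markers, for cells that also lay down type IV collagen, summed to 57.1 and 55.3 CPM in F1 controls and to 39.7, 33.8 and 36.0 CPM in chlordecone libraries, with 5 of 6 lower. Their part in the type IV values was not tested.

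The highest positive F1 log2 fold changes among the members were in collagens of the epithelial surface and its basement membrane. Col23a1 (chr11:51289920-51583918, plus strand, GRCm38), a transmembrane collagen, was 5.61 and 5.30 CPM in controls and 42.3, 17.5 and 26.1 CPM in chlordecone 1 to 3. Every chlordecone library exceeded both controls, and the log2 fold change was 2.39 ± 0.43 (SE; edgeR adjusted p = 0.14; authors' deposited table, log2 fold change 2.39, adjusted p = 4.88e-05). It was 1.68 with F1 chlordecone 1 and 3 left out.

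Col7a1 (chr9:108953586-108984875, plus strand, GRCm38), the chain of the anchoring fibrils that tie epithelial basement membrane to stroma, was 3.62 and 1.73 CPM in F1 controls and 11.2, 11.7 and 18.4 CPM in chlordecone libraries. The groups stood apart, with a log2 fold change of 2.36 ± 0.48 (SE; edgeR adjusted p = 0.17; authors' deposited table, adjusted p = 0.000884). With F1 chlordecone 1 and 3 left out it was 2.13.

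Col18a1 (chr10:77052178-77166548, minus strand, GRCm38), a basement membrane collagen and the source of endostatin, was 4.98 and 2.06 CPM in F1 controls and 34.3, 7.14 and 23.2 CPM in chlordecone 1 to 3. The spread among chlordecone libraries was wide, and the highest of them were chlordecone 1 and 3, the libraries with vas deferens and epididymis markers. Sums of smooth muscle, luminal epithelium and urothelium markers were also higher in chlordecone 1 and 3 than in chlordecone 2. Urothelial markers summed to 28.1 and 20.9 CPM in F1 controls and 61.7, 13.5 and 48.5 CPM in chlordecone 1 to 3, with 3 of 4 higher. The part of any of these tissues in Col18a1 was not tested. The log2 fold change of Col18a1 was 2.62 ± 0.70 (SE, edgeR adjusted p = 0.24), with an adjusted p of 0.0049 in the authors' deposited table. That log2 fold change was 1.02 with F1 chlordecone 1 and 3 left out. Col15a1, its relative in the same family, was 6.03 and 9.51 CPM against 7.88, 10.1 and 8.19 CPM and overlapped.

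Col17a1 (chr19:47646344-47692094, minus strand, GRCm38), the hemidesmosomal collagen that anchors basal epithelial cells, was 3.14 and 1.69 CPM in F1 controls and 5.15, 7.91 and 3.22 CPM in chlordecone libraries. Chlordecone 3 was just above control 1, and the log2 fold change was 1.17 ± 0.62 (SE; edgeR adjusted p = 0.53). With F1 chlordecone 1 and 3 left out that log2 fold change was 1.71. The basal cell markers Krt5, Krt14, Krt15 and Trp63 summed to 28.7 and 40.7 CPM in F1 controls and to 59.0, 89.2 and 63.4 CPM in chlordecone libraries. All 4 were higher, Krt5 and Krt14 at an unadjusted p under 0.05 in edgeR, and their part in the collagen values was not tested.

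Type VI chains form beaded filaments around stromal cells. Col6a1 was 0.524 and 5.01 CPM in F1 controls and 14.5, 9.76 and 12.2 CPM in chlordecone 1 to 3. The controls held 10 and 107 counts, so their ratio was wider than that between any chlordecone libraries, and the log2 fold change of 2.13 ± 0.80 (SE; edgeR adjusted p = 0.37) ranged from 1.29 to 4.53 over the alternatives tried. Col6a2, its partner chain, was 2.99 and 3.28 CPM against 12.0, 5.29 and 4.42 CPM (log2 fold change 1.21 ± 0.58 SE; edgeR adjusted p = 0.47). With F1 chlordecone 1 and 3 left out the log2 fold change of Col6a2 was 0.75. Col6a3 was 17.6 and 18.3 CPM against 30.1, 14.0 and 23.4 CPM, with overlap, and its log2 fold change of 0.33 turned to -0.36 with F1 chlordecone 1 and 3 left out. Col6a4, Col6a5 and Col6a6 had log2 fold changes of 0.50 to 0.81, and Col6a4 alone of these did not overlap (6.97 and 7.87 CPM against 8.55, 13.8 and 9.16 CPM).

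Collagens that decorate fibrils went both ways in F1. Col16a1 was 8.85 and 14.3 CPM in controls and 19.3, 32.8 and 15.51 CPM in chlordecone 1 to 3 (log2 fold change 0.96 ± 0.41 SE; edgeR adjusted p = 0.42), with chlordecone 2 the highest. Without F1 chlordecone 1 and 3 it was 1.50. Col12a1 was 4.82 and 4.59 CPM against 8.79, 5.73 and 8.61 CPM, without overlap (log2 fold change 0.71 ± 0.42 SE; edgeR adjusted p = 0.58). Its log2 fold change was 0.28 with F1 chlordecone 1 and 3 left out. Col14a1 was 0.838 and 4.73 CPM in the controls, which lay on either side of the chlordecone libraries at 3.52, 1.36 and 2.07 CPM.

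Col9a2, a chain best known from cartilage, was the member with the most negative log2 fold change in F1. It was 4.93 and 2.30 CPM in controls, from 94 and 49 counts, and 0.119, 0.273 and 0.690 CPM in chlordecone libraries, from 3, 5 and 15 counts. The log2 fold change was -3.31 ± 0.99 (SE; edgeR adjusted p = 0.28; authors' deposited table, -3.33, adjusted p = 0.039). Of its partner chains, Col9a3 was 1.62 and 0.890 CPM against 0.198, 3.60 and 1.89 CPM, and Col9a1, under the filter and so not tested, was 2.62 and 0.187 CPM against 0.317, 0.0545 and 0.460 CPM. Summed cartilage and bone markers were 2.57 and 12.0 CPM against 1.35, 14.2 and 3.22 CPM, so they overlapped.

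Col25a1, a transmembrane collagen known from neurons, was 2.57 and 2.02 CPM in F1 controls (49 and 43 counts) and 0.238, 0.109 and 0.644 CPM in chlordecone libraries (6, 2 and 14 counts). The log2 fold change was -2.77 ± 1.10 (SE; edgeR adjusted p = 0.40), and it was -4.32 with F1 chlordecone 1 and 3 left out. The short-chain collagen Col8a2 was also lower in every chlordecone library (0.276 to 0.950 CPM against 2.46 and 2.39 CPM; log2 fold change -1.98 ± 0.93 SE, edgeR adjusted p = 0.47), as were Col8a1 (log2 fold change -0.38) and Col22a1 (-1.25). Col13a1, Col19a1, Col20a1 and Col26a1 overlapped between groups. Col9a1, Col10a1 and Col28a1 did not pass the filter in F1.

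In F3 the collagens made up 0.0502%, 0.0535% and 0.0692% of counts in controls and 0.0613%, 0.0606% and 0.0678% in chlordecone 1 to 3, so the groups overlapped. The filter kept 33 of the 42 members, 9 of them (Col2a1, Col9a1, Col9a3, Col11a1, Col22a1, Col24a1, Col25a1, Col26a1 and Col28a1) being too low. A log2 fold change above 0 was found for 14 of 33, beside 48.8% of all genes, and the median was -0.054, beside -0.0086. None passed an adjusted p of 0.05 in edgeR (0 of 33; all genes, 0.0596%). At an unadjusted p under 0.05 Col17a1 was higher (1 of 33; all genes, 4.97%) and Col13a1 lower (1 of 33; all genes, 5.64%). Groups did not overlap for Col17a1 and Col18a1 on the higher side (2 of 33; all genes, 8.34%) and for Col13a1 on the lower (1 of 33; all genes, 8.25%). The authors' deposited table called 0 of 42 (all genes, 0.646%), and DESeq2 run here called 1 of 42, Col17a1 (all genes, 0.877%).

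Col17a1 was the F3 member with the smallest p. Its level was 11.2, 12.3 and 15.3 CPM in controls and 18.8, 20.8 and 21.0 CPM in chlordecone 1 to 3, every chlordecone library lying above every control. The log2 fold change was 0.65 ± 0.15 (SE; edgeR adjusted p = 0.33), with an adjusted p of 0.034 from DESeq2 run here and 0.051 in the authors' deposited table. Over the alternatives tried the log2 fold change stayed between 0.56 and 0.79, and the adjusted p between 0.034 and 0.99. Basal cell markers were higher in the same libraries: they summed to 139, 163 and 137 CPM in F3 controls and 168, 221 and 238 CPM in chlordecone libraries. Krt5, Krt15 and Trp63 had log2 fold changes of 0.47 to 0.63 at an unadjusted p under 0.05 in edgeR, and Krt14 had 0.21. Of 4 urothelial markers none was at 0 in every library and 1 of the 3 tested passed an adjusted p of 0.05 in edgeR; they summed to 107, 109 and 121 CPM against 184, 172 and 198 CPM, and the part of either cell type in Col17a1 was not tested.

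**Figure D2:**
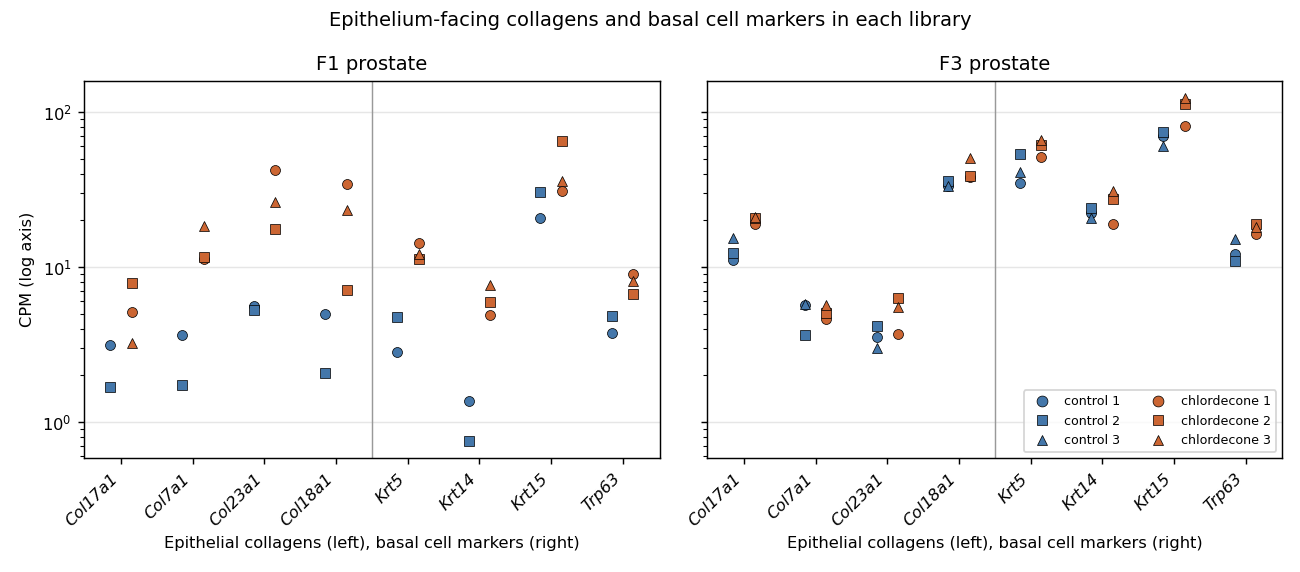
Levels of 4 collagens of the epithelial surface and its basement membrane beside 4 basal cell markers in each library, in CPM on a log axis, with F1 on the left and F3 on the right, control libraries in blue and chlordecone libraries in orange. In F3 the orange points of Col17a1 lie above the blue points, as do those of Krt15 and Trp63, whereas those of Col7a1 lie among them.

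Other collagens of the epithelial surface and basement membrane follow for F3. Col18a1 was 33.4, 36.1 and 33.1 CPM in controls and 38.2, 38.5 and 50.8 CPM in chlordecone 1 to 3, without overlap (log2 fold change 0.31 ± 0.14 SE; edgeR adjusted p = 0.49). Col23a1 was 3.54, 4.14 and 2.99 CPM against 3.69, 6.26 and 5.49 CPM (log2 fold change 0.53 ± 0.25 SE; edgeR adjusted p = 0.49), with chlordecone 1 inside the control range. Col7a1 was 5.65, 3.64 and 5.73 CPM against 4.61, 5.05 and 5.69 CPM, a log2 fold change of 0.030 ± 0.22 (SE; edgeR adjusted p = 0.96). The sign for Col7a1 turned with upper-quartile scaling (-0.0026). Col13a1, a transmembrane collagen, was 0.159, 0.240 and 0.307 CPM in controls and 0.0718, 0.139 and 0.113 CPM in chlordecone libraries, from at most 37 counts, with a log2 fold change of -1.13 ± 0.47 (SE; edgeR adjusted p = 0.47).

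Every fibrillar gene that passed the filter in F3 had a negative log2 fold change (8 of 8, -0.56 to -0.054, median -0.17), none at an unadjusted p under 0.05. The control libraries spread more than the groups differed. Col1a1 was 9.24, 17.0 and 24.1 CPM in controls and 12.4, 14.7 and 17.2 CPM in chlordecone libraries, all of the latter inside the control range. Col1a2 was 16.9, 32.6 and 35.9 CPM against 24.3, 22.3 and 32.3 CPM. Col3a1 was 33.0, 77.1 and 85.5 CPM against 56.8, 45.6 and 77.1 CPM. These genes were lowest in control 1 and highest in control 3. Without control 3 their log2 fold changes became 0.17, 0.088 and 0.12, and without control 1 they became -0.47, -0.38 and -0.44. Col5a1 was 3.90, 5.88 and 9.36 CPM against 5.10, 5.11 and 6.68 CPM. Col5a2 was 3.64, 6.04 and 8.05 CPM against 4.35, 4.51 and 5.40 CPM. Col5a1 and Col5a2 had the same order of controls. Fibroblast markers were also lowest in control 1 (148, 308 and 283 CPM against 243, 226 and 291 CPM), as were smooth muscle markers (1255, 4215 and 3549 CPM against 1597, 2480 and 2379 CPM), and their part was not tested.

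The type IV genes of F3 overlapped between groups without exception. Col4a6 had the highest level per length of any member in every F3 library, 17.6 to 33.4 RPKM. It was 234, 141 and 189 CPM in controls and 266, 237 and 213 CPM in chlordecone libraries (log2 fold change 0.35 ± 0.19 SE; edgeR adjusted p = 0.53). Col4a5 was 20.5, 18.4 and 32.6 CPM against 32.5, 29.0 and 27.2 CPM (log2 fold change 0.31 ± 0.21 SE; edgeR adjusted p = 0.60). Col4a1 was 18.9, 29.9 and 40.5 CPM in controls and 21.5, 32.5 and 28.2 CPM in chlordecone libraries, and Col4a2 was 12.6, 18.8 and 30.1 CPM against 14.8, 21.3 and 17.5 CPM. For this pair, too, control 1 was the lowest and control 3 the highest library. Without control 3 the log2 fold changes of -0.12 and -0.20 became 0.17 and 0.19, and without control 1 they became -0.36 and -0.45. Col4a3 was 1.24, 0.877 and 2.21 CPM against 1.98, 1.39 and 1.95 CPM, and Col4a4 was 2.14, 1.97 and 3.34 CPM against 2.44, 2.73 and 2.85 CPM.

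Among type VI genes in F3, Col6a1 was 8.98, 16.9 and 16.9 CPM in controls and 12.6, 12.0 and 17.3 CPM in chlordecone libraries. Col6a2 ran beside it at 9.15, 17.9 and 17.3 CPM against 12.3, 12.6 and 18.2 CPM. Col6a3 was 13.9, 14.3 and 17.9 CPM against 14.0, 13.3 and 15.4 CPM. All of these overlapped, with log2 fold changes of -0.031 to -0.11. Col6a4 stood out for control 1 alone, at 34.3 CPM, against 9.93 and 9.46 CPM in the other controls and 9.16, 11.4 and 4.74 CPM in chlordecone libraries. Exonic bases of Col6a4, and of Col3a1, Col4a3, Col5a1, Col6a6, Col7a1, Col9a3, Col10a1, Col15a1, Col20a1 and Col22a1, are shared with another annotated gene, so some of their reads are uncertain.

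Among collagens at the fibril surface in F3, Col12a1 was 3.44, 5.79 and 8.34 CPM in controls and 5.33, 5.19 and 7.10 CPM in chlordecone libraries. Col14a1 was 2.59, 2.90 and 4.72 CPM against 4.08, 2.06 and 4.51 CPM, and Col16a1 was 15.9, 17.4 and 24.9 CPM against 17.4, 20.9 and 28.3 CPM. Col15a1, of the basement membrane, was 3.40, 6.82 and 5.55 CPM against 3.47, 4.76 and 6.14 CPM. In each of these the groups overlapped, and log2 fold changes were between -0.13 and 0.19. Col9a2 was 0.476, 0.311 and 0.208 CPM against 0.198, 0.0929 and 0.274 CPM (log2 fold change -0.80 ± 0.51 SE; edgeR adjusted p = 0.57). Col25a1 had 0 counts in every F3 control and 5, 0 and 2 counts in chlordecone 1 to 3, so no fold is given. Of the members not yet given for F3, Col5a3, Col6a5, Col6a6, Col8a1, Col8a2, Col11a2, Col20a1 and Col27a1 were tested, with log2 fold changes from -0.60 to 0.27 and overlapping groups.

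The difference between generations was tested as the F3 effect minus the F1 effect in 1 fit of all libraries. Of its 42 members, 33 had passed the filter with F3 fitted alone, and the others had low F3 counts. The fit covered these 42 members among 16980 genes. None passed an adjusted p of 0.05 in edgeR (0 of 42; all genes, 0.718%). At an unadjusted p under 0.05 there were 9 of 42 (all genes, 16.9%): Col1a1, Col4a1, Col4a2, Col6a1, Col7a1, Col9a2, Col18a1, Col23a1 and Col25a1. Col7a1 differed most firmly, by -2.27 ± 0.51 on the log2 scale (SE; edgeR adjusted p = 0.060), the F1 difference being the larger. Col23a1 differed by -1.79 ± 0.47 (edgeR adjusted p = 0.086), Col18a1 by -2.23 ± 0.65 and Col4a2 by -1.68 ± 0.49 (edgeR adjusted p = 0.11 for both). Col25a1 was at 0 counts in every F3 control and entered this fit through its F1 counts, so its difference has no interpretable size. With DESeq2 run here 5 of 42 members passed an adjusted p of 0.05 (all genes, 6.76%): Col4a2, Col7a1, Col18a1, Col23a1 and, with that limit, Col25a1. Without F1 chlordecone 2, 4 of 42 passed in edgeR (Col4a2, Col7a1, Col18a1 and Col23a1), a smaller share than the 13.8% of all genes. The F1 chlordecone libraries kept there were 1 and 3, those with vas deferens and epididymis markers. Without F1 control 2, 1 of 42 passed (Col6a1, -4.46; all genes, 0.241%). With F1 chlordecone 1 and 3 both left out, which leaves 1 F1 chlordecone library, values are given as descriptions. Col7a1 then differed by -2.08, Col23a1 by -1.13, Col4a2 by -1.12 and Col18a1 by -0.69, each nearer to no difference than with all libraries. Col1a1 differed by -1.46, against -1.03 with all libraries. For Col17a1 the difference between generations was -0.46 ± 0.48 (SE; edgeR adjusted p = 0.68).

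**Figure D3:**
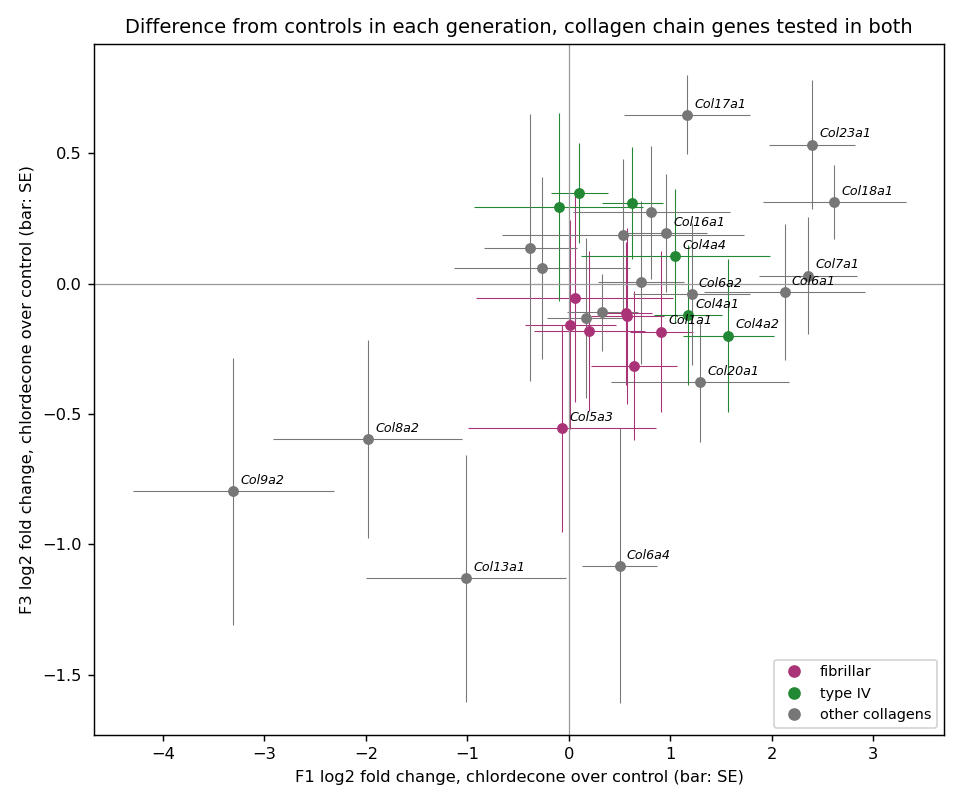
Log2 fold change of chlordecone over control in F1 (horizontal axis) and F3 (vertical axis) for the collagen chain genes tested in both generations, with standard errors as bars and colours for fibrillar, type IV and other collagens. Col7a1, Col18a1 and Col23a1 lie between 2.36 and 2.62 in F1 and between 0.030 and 0.53 in F3, and the vertical scale is narrower than the horizontal one.

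Ratios between chains of 1 library do not depend on how libraries are scaled. For 9 pairs of chains in each generation (18 ratios) an exact permutation test over libraries, two-sided, gave an adjusted p of 0.9 throughout, and the smallest p it could give was 0.2 in F1 and 0.1 in F3. In F3 the ratio of Col6a2 to Col6a1 was nearly constant, with log2 ratios of counts of 0.050 ± 0.031 in controls and 0.041 ± 0.062 in chlordecone libraries (SD, n = 3 each). This was the tightest of the ratios among F3 controls. In F1 the same ratio was 2.51 and -0.61 in controls and -0.27, -0.88 and -1.47 in chlordecone libraries, where control 1 had 57 counts of Col6a2 and 10 of Col6a1.

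The pairs of type IV genes differed in how closely their chains kept together. Col4a2 to Col4a1 had log2 ratios of -1.81 and -2.16 in F1 controls and -1.54, -1.79 and -1.51 in chlordecone libraries, without overlap (exact permutation p = 0.2). In F3 that ratio was -0.56 ± 0.12 in controls and -0.61 ± 0.072 in chlordecone libraries (SD, n = 3 each). Col4a6 to Col4a5 was -0.77 and -0.78 in F1 controls and -1.35, -0.63 and -1.85 in chlordecone 1 to 3. In F3 its log2 ratios were 3.51, 2.93 and 2.53 in controls and 3.04, 3.03 and 2.97 in chlordecone libraries. Per exon length Col4a6 was 0.234 to 0.546 times Col4a5 in the F1 libraries and 4.88 to 9.60 times Col4a5 in the F3 libraries. Col4a4 to Col4a3 was -1.06 ± 0.086 in F1 controls (SD, n = 2) and 0.85 ± 0.29 in F3 controls (SD, n = 3), and F1 chlordecone 2, at 2.39, lay far above the other F1 libraries. The F1 and F3 tables were made separately, so this difference between generations describes the tables and was not tested.

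Among stromal pairs the log2 ratio of Col1a1 to Col1a2 was -0.82 ± 0.28 in F1 controls and -0.51 ± 0.45 in F1 chlordecone libraries, and -0.79 ± 0.19 against -0.82 ± 0.20 in F3. Col3a1 to Col1a1 was 2.46 ± 0.12 against 2.10 ± 0.96 in F1, where chlordecone 2 was the lowest at 1.07, and 1.95 ± 0.20 against 1.99 ± 0.31 in F3. Basement membrane to stromal collagen, as Col4a1 to Col1a1, was -0.026 ± 0.22 against 0.22 ± 0.70 in F1 and 0.86 ± 0.15 against 0.88 ± 0.23 in F3 (SD, with n = 2 for F1 controls and n = 3 otherwise). In F3 each of these ratios differed between groups by less than the SD of either group.

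**Figure D4:**
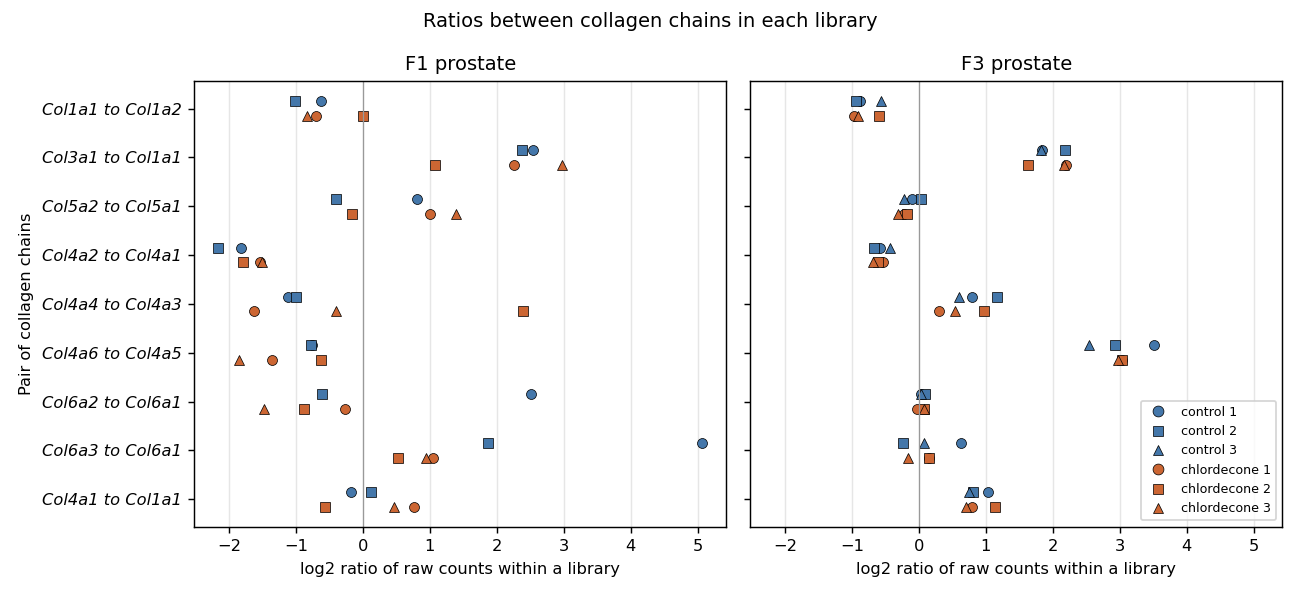
Log2 ratio of raw counts for 9 pairs of collagen chains in each library, F1 on the left and F3 on the right, with control libraries in blue and chlordecone libraries in orange. Points for Col6a2 to Col6a1 in F3 lie within -0.030 and 0.084, and Col4a6 to Col4a5 lies left of 0 in F1 and right of it in F3.

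The enzymes, chaperones, receptors and inducers of the collagen pathway were counted from lists by role. In F1, 58 of 61 listed genes had a row and 57 were tested; 0 passed an adjusted p of 0.05 in edgeR, 10 were higher and 1 lower at an unadjusted p under 0.05 (all genes, 7.93% and 3.6%), and their median log2 fold change was 0.39. In F3, where Mia2 has 2 rows, 58 rows were tested; 0 passed, 2 were higher and 2 lower at an unadjusted p under 0.05 (all genes, 4.97% and 5.64%), and the median was -0.016. By role in F1, 3 of 6 receptors tested were higher at that p, as were 2 of 4 chaperone and secretion genes, 2 of 9 genes of the TGF-β inducers and 1 each of the crosslinking enzymes, prolyl hydroxylases and procollagen proteases. Genes of lysyl modification had none.

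Ddr2, a receptor for fibrillar collagen, had the smallest p of these genes in F1, at 9.27 and 8.67 CPM in controls and 40.1, 25.1 and 24.4 CPM in chlordecone libraries (log2 fold change 1.74 ± 0.33 SE; edgeR adjusted p = 0.16). Smad4, which carries TGF-β signals to the nucleus, was 78.9 and 105 CPM against 211, 224 and 233 CPM (log2 fold change 1.27 ± 0.28 SE; edgeR adjusted p = 0.20). The groups of both genes stood apart. Itga2, a collagen-binding integrin chain, was 2.10 and 0.844 CPM against 43.9, 2.73 and 18.5 CPM, highest in chlordecone 1 and 3. Mmp8, a collagenase, was 3.04 and 3.19 CPM against 0.158, 0.491 and 0.230 CPM (log2 fold change -3.40 ± 0.94 SE; edgeR adjusted p = 0.25), the 1 pathway gene lower at an unadjusted p under 0.05.

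The collagen chaperone Serpinh1 was 34.9 and 37.0 CPM in F1 controls and 104, 34.0 and 87.2 CPM in chlordecone 1 to 3, so chlordecone 2 was just below the controls (log2 fold change 1.06 ± 0.45 SE; edgeR adjusted p = 0.42). Sparc, which binds collagen during secretion, was 89.4 and 103 CPM against 231, 121 and 184 CPM (log2 fold change 0.90 ± 0.34 SE; edgeR adjusted p = 0.37). Lox, the crosslinking enzyme, was 5.45 and 4.64 CPM against 7.01, 7.03 and 6.90 CPM (log2 fold change 0.47 ± 0.40 SE). For Serpinh1 and Sparc, as for Col18a1 and Col4a1, chlordecone 2 was the lowest exposed library.

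In F3 the smallest p values among pathway genes were those of the TGF-β receptor Tgfbr1 (log2 fold change 0.43 ± 0.12 SE; edgeR adjusted p = 0.39), the matricellular protein Ccn2 (-1.23 ± 0.37 SE; edgeR adjusted p = 0.39), the prolyl hydroxylase P4ha2 (0.51 ± 0.19 SE; edgeR adjusted p = 0.45) and the metalloprotease inhibitor Timp1 (-0.65 ± 0.25 SE; edgeR adjusted p = 0.46). Ccn2 was 8.83, 14.6 and 22.9 CPM in controls and 4.92, 9.26 and 5.61 CPM in chlordecone libraries. Its groups overlapped, chlordecone 2 being above control 1. Serpinh1 was 13.8, 39.2 and 23.8 CPM against 13.9, 20.6 and 26.0 CPM, Sparc was 53.8, 146 and 101 CPM against 55.5, 72.1 and 82.4 CPM, and Lox was 1.69, 2.72 and 3.15 CPM against 2.51, 1.73 and 2.94 CPM. All of these 3 were lowest in control 1, as were Col1a1, Col1a2, Col3a1, Col5a1 and Col5a2.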

How the data were processed

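Reads were counted per gene by the authors with HTSeq 0.6.1 after alignment to mm10 with TopHat2 2.0.14 and Bowtie2 2.1.0, per the submitters' processing notes; neither the strand setting nor the annotation release was given in those notes. The deposited tables also hold the authors' log2 fold changes, p-values and adjusted p-values, and those notes name DESeq2 1.6.3. In the F1 table the lowest total count of a gene was 20, and in F3 it was 1.

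From the deposited counts, edgeR 4.0.16 (quasi-likelihood test, TMM scaling, a filter with minimum count 10 and minimum total 15, R 4.3.3) was fitted for each generation and, with 11 libraries, for the difference between generations. P-values were adjusted by Benjamini-Hochberg over all genes tested, and adjusted p-values in the text are edgeR's unless another source is named. DESeq2 1.42.0 was an alternative, as were other scalings, filters, a block for the replicate number, 1 fit of all libraries and leaving out each library. Leaving out F1 chlordecone 1 and 3 together was added after seeing the data. Chain ratios were tested with SciPy 1.17.1. Standard errors of fold changes were derived from the test statistic, and the scripts were tested on simulated data.

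RPKM and coordinates used GENCODE exons matched by Ensembl ID. Every collagen chain gene could be named. Pathway genes were named if past the threshold, if among the 4 with the smallest p in a generation, or if Serpinh1, Sparc or Lox. The members and lists were chosen with earlier results of these data known.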

Additional observations from a re-analysis of the deposited data

Results flagged for a closer look

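The basal cell keratin Krt14, given beside the epithelial collagens, differed between generations in the test of that difference itself: the F3 effect minus the F1 effect was -2.28 ± 0.42 on the log2 scale (SE; edgeR adjusted p = 0.029). It was 1.36 and 0.750 CPM in F1 controls, which is low, and 4.87, 5.94 and 7.64 CPM in F1 chlordecone libraries. Within F1 its log2 fold change was 2.54 ± 0.60 (SE, edgeR adjusted p = 0.21). In F3 it was 22.2, 23.9 and 20.7 CPM against 18.9, 27.6 and 30.8 CPM. Within F3 its log2 fold change was 0.21 ± 0.19 (SE, edgeR adjusted p = 0.67). Of all genes, 0.718% passed in that test. The other basal cell markers did not: Krt5 differed by -1.17, Trp63 by -0.34 and Krt15 by -0.10 (edgeR adjusted p = 0.11, 0.64 and 0.93). The part of seminal vesicle, vas deferens and epididymis tissue in the F1 values of Krt14 was not tested.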

How the results depend on the processing

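The count of F1 collagen genes past an adjusted p of 0.05 was 0 in edgeR (all genes, 0.0281%), 4 in DESeq2 (3.62%), 4 with a replicate block (1.81%), 5 in 1 fit of all libraries (5.48%) and 4 with F1 chlordecone 1 and 3 left out together (6.57%); leaving out 1 library gave 0 to 7. The count with both left out rests on the spread of 2 controls alone and supports nothing. With the block the genes were Col7a1, Col18a1, Col23a1 and Col6a1 (2.70, edgeR adjusted p = 0.0097). The block pairs libraries by a number that is not known to mark a pair. F1 chlordecone 3 has no control of its number here, so it adds nothing to the fold changes with the block. The F1 median log2 fold change was 0.40 with upper-quartile scaling (which moved the median of all genes from 0.025 to -0.12), 0.47 in DESeq2, 0.47 with the replicate block, 0.40 without F1 chlordecone 1 and 3, and 0.45 to 0.54 without 1 library. In F3 the count was 1 in DESeq2, and the median ran from -0.24 (without F3 control 1) to 0.19 (without F3 control 3). For the difference between generations the count was 5 in DESeq2 and 0 to 4 without 1 library. The cause of these changes was not tested. Of 795 fold changes of single genes under alternatives (58 results), 713 kept direction and side of the threshold, 35 passed it and 47 reversed, 9 in F1 and 38 in F3.

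With upper-quartile scaling F1 Col4a6 became -0.043, F3 Col7a1 -0.0026 and F3 Col12a1 -0.037, and with a mean of at least 1 CPM F3 Col12a1 became -0.0049. With the replicate block F1 Col14a1 became 0.11, F3 Col6a1 0.0080 and F3 Col6a2 7.1e-05. In 1 fit of all libraries F3 Col6a1 became 0.023 and F3 Col6a2 0.014. Without F1 chlordecone 1 and 3, F1 Col3a1 became -0.098 and F1 Col6a3 -0.36.

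Reversals without 1 library in F1 gave ranges of -0.23 to 0.48 for Col5a1, -0.38 to 0.30 for Col4a3, -1.01 to 1.47 for Col14a1 and -0.11 to 0.54 for Col15a1. In F3 the ranges were -0.47 to 0.17 for Col1a1, -0.38 to 0.088 for Col1a2, -0.44 to 0.12 for Col3a1, -0.44 to 0.20 for Col5a1, -0.36 to 0.17 for Col4a1, -0.45 to 0.19 for Col4a2 and -0.046 to 0.38 for Col4a4. They were -0.27 to 0.11 for Col6a1, -0.29 to 0.11 for Col6a2, -0.17 to 0.014 for Col6a3, -0.16 to 0.14 for Col7a1, -0.26 to 0.35 for Col12a1, -0.16 to 0.37 for Col14a1, -0.36 to 0.088 for Col15a1 and -0.021 to 0.42 for Col16a1.

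Differences in log2 ratio ran in F1 from -0.80 to 0.16 for Col3a1 to Col1a1, -0.063 to 1.14 for Col5a2 to Col5a1 and -0.027 to 0.64 for Col4a1 to Col1a1. In F3 they ran from -0.14 to 0.080 for Col1a1 to Col1a2, -0.050 to 0.23 for Col3a1 to Col1a1, -0.10 to 0.016 for Col4a2 to Col4a1, -0.21 to 0.28 for Col4a6 to Col4a5, -0.026 to 0.028 for Col6a2 to Col6a1, -0.31 to 0.13 for Col6a3 to Col6a1 and -0.11 to 0.10 for Col4a1 to Col1a1.

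Samples with the same replicate number share only a number: their deviations correlated at 0.057 and 0.064 in F1 and at 0.19, -0.053 and -0.050 in F3. The block was not run for chain ratios. Where an arm was left with 1 library, it was assumed to vary like the other libraries. In F1 the values of Col9a2, Col25a1 and Col6a1 are limited by low counts, which were as low as 3, 2 and 10 in single libraries.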
